A study of Mus musculus with 10 samples.

Results

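The EGF receptors and ligands studied here were 10 genes, out of 21779 protein-coding genes: the receptor genes Egfr, Erbb2 and Erbb3 and the ligand genes Tgfa, Hbegf, Egf, Epgn, Ereg, Areg and Btc. They were chosen by name, and a p63 peak was counted for a gene if its midpoint lay inside the gene or within 50 kb of either end. By that rule 18 of the 8451 p63 peaks belonged to these genes. The peaks come from chromatin immunoprecipitation and sequencing (ChIP-seq) with the p63 antibody 4A4 in mouse keratinocytes of 2 lines that the submitters call similar, MK1 and MK2, with 1 p63 library each; no treatment or genotype is labelled. The series also holds 6 histone libraries (H3K27ac, H3K4me3 and H3K4me1) and 2 of input, which were not analysed here. The deposited list merges both p63 libraries into positions without heights, so read depth is unknown, the lines cannot be set against each other, and no test over samples can be made. The list keeps peaks ranked alike in both libraries. A gene without a listed peak may still be bound below the limit of detection, or in only 1 line. The list measures binding, so the keratinocyte identity of the lines was not checked by expression. Positions are 1-based on mm10.

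p63, a transcription factor of the p53 family, is needed for stratified epithelia such as the epidermis. EGF-family ligands are made as membrane proteins, are cut free by proteases, and bind receptor tyrosine kinases that pair up, activate each other and signal through the Ras and MAP kinase cascade. In the epidermis EGFR is found mainly in the basal layer, and keratinocytes make several of its ligands themselves, which drives their growth and migration and delays differentiation.

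DNA under the peaks could be read where a peak crossed a promoter window of the RefSeq table (GRCm38.p6, the same coordinates as mm10), which runs from 250 bases before to 50 after a start site. Of the 18 peaks, 0 crossed such a window of a receptor or ligand gene and 3 crossed one of another gene. RefSeq windows were used for 7 of the 10 genes; Erbb3, Ereg and Hbegf had no entry. The 3 stretches below are shown because they are DNA under the peaks themselves, on the sense strand of the named gene, 5′ to 3′. Capitals mark the letters CATG, the central letters of many p53 family sites, or a whole p53 family decamer, 10 letters made of purines, then CWWG with A or T in the middle, then pyrimidines. Each motif equals its own reverse complement, so a search of 1 strand covers both, and a decamer may contain CATG.
Egfros, chr11:16830629-16830915, minus strand, inside Egfr: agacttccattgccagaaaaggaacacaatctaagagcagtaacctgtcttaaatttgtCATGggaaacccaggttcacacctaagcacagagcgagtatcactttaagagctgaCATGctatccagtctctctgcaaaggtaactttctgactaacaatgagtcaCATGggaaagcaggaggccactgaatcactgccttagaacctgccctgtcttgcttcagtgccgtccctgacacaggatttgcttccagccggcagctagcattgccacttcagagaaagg
Pa2g4, chr10:128565935-128566184, minus strand, below Erbb3: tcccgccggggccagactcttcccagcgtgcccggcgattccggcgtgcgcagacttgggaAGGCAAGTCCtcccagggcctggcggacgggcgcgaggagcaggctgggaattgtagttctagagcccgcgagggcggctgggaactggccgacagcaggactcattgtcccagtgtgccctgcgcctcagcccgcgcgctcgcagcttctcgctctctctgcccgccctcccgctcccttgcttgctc
Esyt1, chr10:128525860-128526109, minus strand, below Erbb3: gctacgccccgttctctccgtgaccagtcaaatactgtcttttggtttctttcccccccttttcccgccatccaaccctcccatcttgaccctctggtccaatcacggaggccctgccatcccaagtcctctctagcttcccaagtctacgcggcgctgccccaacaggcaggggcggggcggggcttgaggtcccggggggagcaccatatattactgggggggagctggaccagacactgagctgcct
The Egfros stretch made up 65.4% of its 439 bp peak and held CATG 3 times and the decamer 0 times. The Pa2g4 stretch made up 57.9% of its 432 bp peak and held 1 decamer. The Esyt1 stretch made up 84.2% of its 297 bp peak and held neither motif. Over the first 250 bases of all 32851 windows in the table, 7.13% held a decamer and 53.9% held CATG. Over the first 287 bases, 59.5% held CATG. These shares count windows with at least 1 match, and the share holding CATG 3 times was not taken. A tandem of 2 decamers, 20 letters with both CWWG cores kept and at most 2 mismatches elsewhere, was in 0 of the 3 stretches. In the whole table that tandem was in 7.82% of the 243 windows with at least 150 bases under a p63 peak and in 0.0954% of the 32498 windows with no base under one. Over whole windows of these same groups, the decamer was in 23.5% and 8.25%, and CATG was in 58.8% and 61.1%. CATG was thus not more frequent in the windows under p63 peaks.

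The table held 8 windows of these 7 genes, of which 2 were Egf's. Of the 8 windows 1 held a decamer and 0 held the tandem, against 8.36% and 0.158% of all windows in the table. The 250 bases before the start site are shown for Egfr, whose nearest peak lay just inside the gene, and for Egf, whose window held that decamer although no peak was listed near it.
Egfr, chr11:16751953-16752202, plus strand: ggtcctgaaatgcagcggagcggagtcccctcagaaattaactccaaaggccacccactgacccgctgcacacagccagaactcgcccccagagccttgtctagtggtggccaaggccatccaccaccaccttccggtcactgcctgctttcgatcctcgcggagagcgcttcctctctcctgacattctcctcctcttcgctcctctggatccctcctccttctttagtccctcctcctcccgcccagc
Egf, chr3:129755323-129755572, minus strand: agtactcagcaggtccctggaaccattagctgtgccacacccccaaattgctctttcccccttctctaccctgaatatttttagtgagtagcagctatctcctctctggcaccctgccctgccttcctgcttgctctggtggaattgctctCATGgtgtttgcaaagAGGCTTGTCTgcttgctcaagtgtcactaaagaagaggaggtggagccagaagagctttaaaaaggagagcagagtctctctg
The Egfr stretch held neither motif. The Egf stretch held 1 decamer and 1 CATG, and its nearest listed peak lay 146 kb from the gene. A match of letters is a description and does not mark a binding site, and a missing match says only that the letters are not in these bases.

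p63 peaks lay at 7 of the 10 genes (70.0%), where 40.7% of all protein-coding genes carried one inside or within 50 kb. Of the receptors, 2 of 3 had a peak, and of the ligands 5 of 7. Tgfa had 5 peaks, Egfr 4, Erbb3, Ereg and Areg 3 each, Hbegf 2 and Epgn 1, and Erbb2, Egf and Btc had 0. Ereg and Areg shared the same 3 peaks. The windows of the 10 genes together covered 1.35 Mb and held 13.4 peaks per Mb, against 4.27 peaks per Mb in the windows of all protein-coding genes. The density was 13.8 peaks per Mb at the receptors and 13.2 at the ligands. Longer genes have larger windows: a peak was listed for 50.6% of genes in the longest of 5 equal length classes (57.3 kb and over), which holds Egfr, Tgfa and Egf, and for 38.2% of the others. Of these 3 long genes 2 had a peak, and of the other 7 genes 5 had one.

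**Figure D1:**
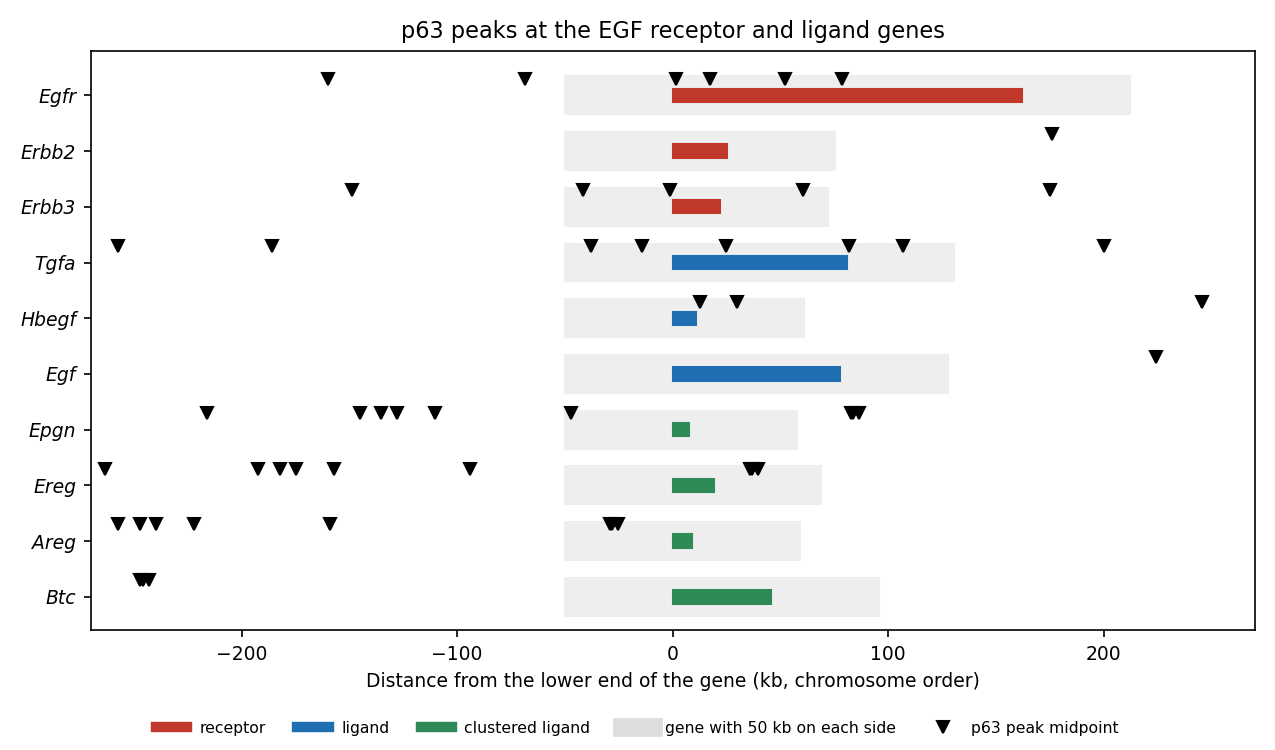
p63 peaks around each receptor and ligand gene. The horizontal axis gives the distance in kb from each gene's lower end in chromosome order, coloured bars are genes, grey bands add 50 kb on each side and triangles are peak midpoints. The 4 Egfr peaks lie inside the gene, the Tgfa peaks lie on both sides and within it, and the bands of Erbb2, Egf and Btc hold none.

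These counts depend on how a peak is given to a gene. When a peak counted only for its nearest protein-coding gene, 12 of the 18 peaks stayed with these genes and 4 of the 10 genes kept one, namely Egfr, Tgfa, Hbegf and Ereg. Of all protein-coding genes, 20.0% were the nearest coding gene of a peak within 50 kb. Within 10 kb, 4 of the 10 genes had a peak (Egfr, Tgfa, Erbb3 and Hbegf), against 21.3% of all protein-coding genes. Within 25 kb it was 5 of 10, against 29.7%, and within 100 kb 7 of 10, against 55.2%. The peak closest to the 50 kb limit on its inner side was that of Epgn, 47.0 kb away, and the closest beyond it lay 68.5 kb below Egfr.

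Among the receptors, Egfr carried its peaks inside the gene. Egfr, which encodes the receptor for all 7 of the ligands, spans 162 kb on chromosome 11 (16752203 to 16913907, plus strand). A share of 4.75% of protein-coding genes had 4 or more peaks inside or within 50 kb, and 0.882% had 4 or more inside the gene. Both shares cover genes of all lengths, with a median of 17.2 kb, and were not matched to the length of Egfr. The first Egfr peak spanned 16753706 to 16754022, 317 bp wide, with its midpoint 1.66 kb after the start site. The next, 16769378 to 16769690, was 313 bp wide and lay 17.3 kb after it. The third, 16804145 to 16804408, was 264 bp wide and lay 52.1 kb after it. The fourth, 16830477 to 16830915, was the widest at 439 bp and lay 78.5 kb after it. All 4 therefore lay in the first 48.5% of the gene, and the 83.0 kb beyond the last peak held none. The fourth crossed the promoter window of Egfros, a long non-coding RNA gene inside Egfr on the other strand, whose letters are printed above. The gene table gives no exons, so an exon could not be told from an intron. Outside the gene, the next peaks lay 68.5 kb below it, with Egfr as the nearest coding gene, and 269 kb above it, inside Ppp3r1.

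Erbb3 differed from Egfr in where its peaks lay. Erbb3, which encodes a receptor with little kinase activity of its own that signals by pairing, spans 22.1 kb on chromosome 10 (128567523 to 128589635), and 0 of its 3 peaks were inside it. A share of 9.7% of protein-coding genes had 3 or more peaks in their windows. The nearest Erbb3 peak, 128565927 to 128566358, lay 1.38 kb below the gene and was 432 bp wide. Its nearest gene was Pa2g4 at 0.208 kb, and it crossed the Pa2g4 promoter window. Pa2g4 encodes a protein that was named for binding ErbB3. A 297 bp peak at 128525828 to 128526124 lay 41.5 kb below Erbb3 and crossed the promoter window of Esyt1. A 398 bp peak at 128627604 to 128628001 lay 38.2 kb above it and 1.30 kb from Rps26. All 3 peaks were thus nearer to another gene, and 6 other coding genes reached into the window of Erbb3.

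Erbb2, which encodes the receptor that binds no ligand of the family and pairs with the others, had 0 peaks. It spans 25.2 kb on chromosome 11 (98412484 to 98437716, plus strand). Its nearest peak, 98588263 to 98588520, lay 151 kb above it and 1.15 kb from Ormdl3. On the other side the next peak was 450 kb away, so that Erbb2 stood in a stretch of 625 kb without a listed peak. Of all stretches between neighbouring peaks, 11.8% were at least that long. That share counts stretches and not genes: 35.7% of protein-coding genes had their nearest peak as far away as Erbb2 or farther. The stretch of 625 kb also held Grb7, which encodes an adaptor that binds ErbB receptors. With 7 other coding genes reaching into its window, Erbb2 stood in a denser neighbourhood than Egfr, where 1 did.

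Tgfa had the most peaks of the ligand genes, and they lay before, within and after it. Tgfa encodes TGF-alpha, a main EGFR ligand of keratinocytes whose loss gives mice wavy hair. It spans 80.7 kb on chromosome 6 (86195038 to 86275744, plus strand), and 0 other coding genes reached into its window. A share of 2.14% of protein-coding genes had 5 or more peaks in their windows. That share covers genes of all lengths, with a median of 17.2 kb, and was not matched to the length of Tgfa. A 679 bp peak at 86180217 to 86180895 lay 14.7 kb before the start site; 2.62% of all peaks were as wide. A 289 bp peak at 86219735 to 86220023 lay inside the gene, 24.7 kb after the start site. A 271 bp peak at 86276529 to 86276799 lay 0.92 kb after the end. The 2 outer peaks, 86157039 to 86157270 and 86301495 to 86301789, were 37.9 kb before and 25.9 kb after the gene. The first of these was nearer to Add2, at 32.7 kb, and the other 4 had Tgfa as the nearest coding gene.

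Hbegf, which encodes a heparin-binding ligand of EGFR induced in wounded epidermis, spans 10.9 kb on chromosome 18 (36504927 to 36515805). It had 2 peaks, as 19.7% of protein-coding genes had 2 or more. A 256 bp peak at 36517298 to 36517553 lay 1.62 kb above the gene and had Hbegf as the nearest coding gene, although it lay inside the long non-coding RNA gene Gm41698. A 452 bp peak at 36534523 to 36534974 lay 18.9 kb above Hbegf and inside Slc4a9. On the lower side the next peak was 366 kb away, inside Nrg2.

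Egf, which encodes the founding ligand of the family and is made mainly by kidney and salivary gland, spans 77.7 kb on chromosome 3 (129677574 to 129755322, minus strand) and had 0 peaks. Its nearest peak, 129901626 to 129901857, lay 146 kb away inside Casp6. The next on the lower side was 1751 kb away. Egf thus lay in a stretch of 1980 kb without a listed peak, and 2.99% of stretches between neighbouring peaks were at least that long. That share counts stretches and not genes: 36.3% of protein-coding genes had their nearest peak as far away as Egf or farther.

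The genes of epigen, epiregulin, amphiregulin and betacellulin lie in this order on chromosome 5, as Epgn, Ereg, Areg and Btc, over 375 kb. Between the lower end of Epgn and the upper end of Btc the list held 3 peaks, all of them in the 45.9 kb between Ereg and Areg, and 0 elsewhere. They spanned 91110036 to 91110577 (542 bp), 91111153 to 91111471 (319 bp) and 91114037 to 91114270 (234 bp), and 4.24 kb covered them from end to end. Of 8409 runs of 3 successive peaks on a chromosome, 48 (0.571%) had their midpoints as close together as these, within 3.85 kb.

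By nearest peak, the order of the clustered ligands was Ereg, Areg, Epgn and Btc. Ereg, whose product activates several ErbB receptors, spans 91074617 to 91093649 and lay 16.7 kb from the first of the 3 peaks, which were 16.7, 17.7 and 20.5 kb above it. Areg, whose product amphiregulin is a main autocrine growth factor of keratinocytes, spans 91139599 to 91148432 on the plus strand. The same peaks lay 29.3, 28.3 and 25.4 kb before its start site, and each was nearer to Ereg. Epgn, which encodes a ligand of low affinity, spans 91027517 to 91035212 on the plus strand. Its nearest peak, 90980246 to 90980797, lay 47.0 kb before its start site and inside the neighbouring gene Mthfd2l. That peak was 552 bp wide, and 7.03% of all peaks were as wide. Btc, whose product betacellulin binds EGFR and ErbB4, spans 91357261 to 91402994 on the minus strand and had 0 peaks in its window. The peak nearest to Btc was the third of the peaks between Ereg and Areg, 243 kb below it. Above Btc the next peak was 817 kb away, near Ppef2. Areg and Btc thus lay in 1 stretch of 1110 kb without a listed peak, and 6.61% of stretches were at least that long. Counted by genes, 70.0% of protein-coding genes had their nearest peak as far away as Areg or farther, and 25.9% as far as Btc or farther. Below the cluster, 5 further peaks lay 110 to 216 kb from Epgn, and their nearest coding genes were the chemokine genes Cxcl1, Cxcl2 and Cxcl15.

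**Figure D2:**
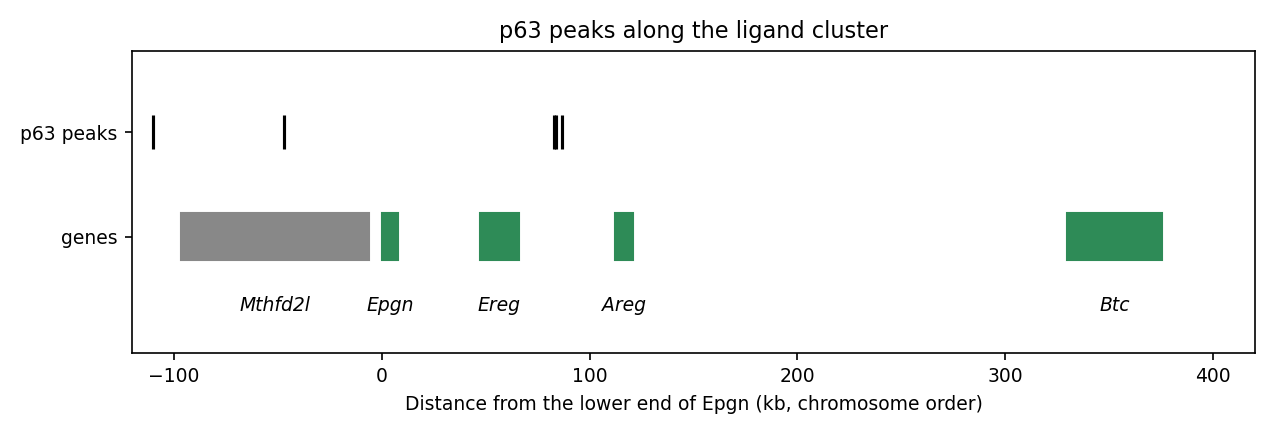
p63 peaks along the cluster of ligand genes on chromosome 5. The horizontal axis gives the distance in kb from the lower end of Epgn, green boxes are the ligand genes, the grey box is Mthfd2l and vertical ticks are peak midpoints. The 3 ticks between Ereg and Areg are the only peaks from Epgn to Btc.

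Set side by side, the receptors had their nearest peaks at 0 (inside the gene), 1.38 and 151 kb, with a median of 1.38 kb. The ligands had theirs at 0, 1.62, 16.7, 25.4, 47.0, 146 and 243 kb, with a median of 25.4 kb. The receptor median is the value of Erbb3 alone, whose peak was nearer to Pa2g4, at 0.208 kb, and crossed the Pa2g4 promoter window. The ligand median is that of Areg, whose peak was nearer to Ereg. With each peak given only to its nearest protein-coding gene, 1 receptor and 3 ligands kept a peak. The ligands outside the cluster had a median of 1.62 kb, the clustered ligands one of 36.2 kb, and all protein-coding genes one of 79.0 kb. Receptors ranged from 0 to 151 kb and ligands from 0 to 243 kb, and each group held genes with a peak inside and genes with none within 50 kb. Peaks inside the gene were listed for 1 of 3 receptors and 1 of 7 ligands, against 13.4% of protein-coding genes. The shares of protein-coding genes with a peak as near or nearer were 15.1% for Erbb3, 15.3% for Hbegf, 25.5% for Ereg, 30.0% for Areg, 39.6% for Epgn, 63.7% for Egf, 64.3% for Erbb2 and 74.1% for Btc. Genes are not replicates of a condition, and no test of the difference between receptors and ligands was made.

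**Figure D3:**
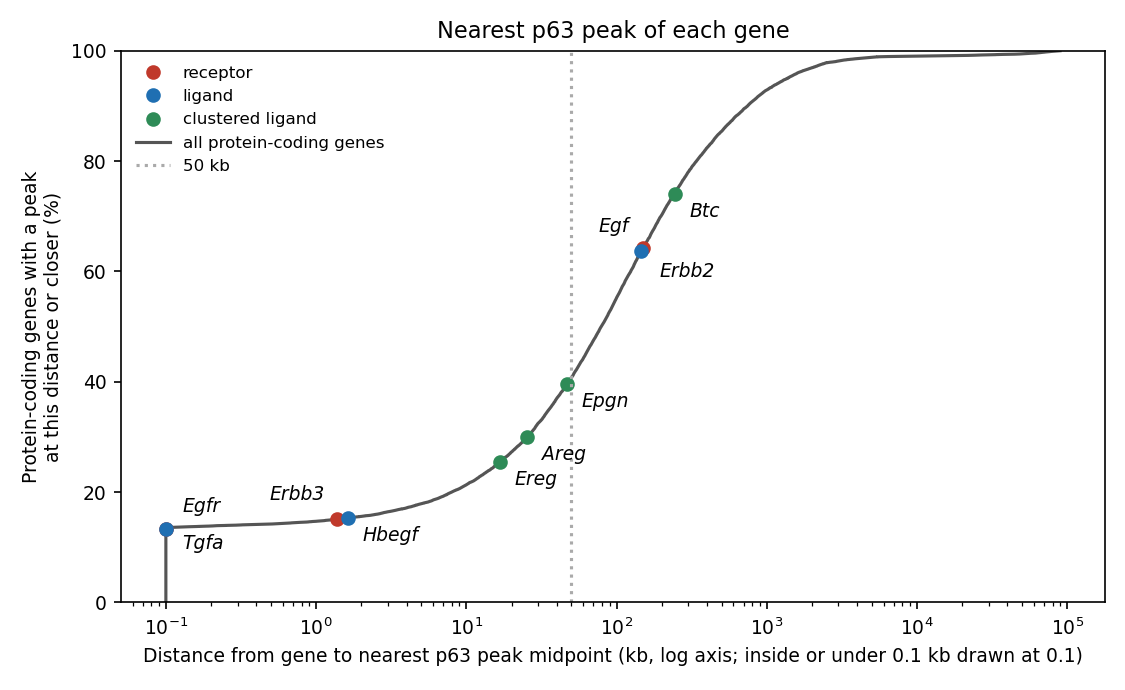
Share of protein-coding genes, in percent, whose nearest p63 peak lies at a given distance in kb or closer, on a log axis with peaks inside a gene drawn at 0.1 kb. Points mark the receptor and ligand genes on that curve; 7 of the 10 lie left of the dotted line at 50 kb, from Egfr and Tgfa at the left to Epgn, and Btc lies farthest to the right. The points of Egfr and Tgfa coincide.

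The 18 peaks had widths of 232 to 679 bp with a median of 315 bp, against 306 bp for all peaks in the windows of protein-coding genes. Receptor peaks had a median width of 317 bp and ligand peaks one of 295 bp. Of the 18 peaks the 3 between Ereg and Areg (16.7%) had another peak within 10 kb, against 29.9% of the peaks in the windows of protein-coding genes.

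Further genes of the ErbB pathway were taken from a list of 34 that feed, restrain or carry the signal. The list was chosen with earlier results of these data known, so its shares are descriptions and not independent of that choice. A peak lay inside or within 50 kb of 21 of the 34 genes (61.8%), against 40.7% of protein-coding genes. Within the longest length class, 11 of 19 listed genes had a peak, against 50.6% of protein-coding genes, and among the others 10 of 15, against 38.2%. Its windows held 6.68 peaks per Mb, against 4.27 in the windows of all protein-coding genes. By kind, the genes listed as inhibitors (Errfi1, Cbl, Cblb and the Lrig genes) had a peak in 5 of 6 cases. The proteases and rhomboid proteins of ligand release had one in 5 of 5, and the remaining receptor and neuregulins in 3 of 5. Adaptors and membrane enzymes had one in 4 of 8, and the genes from Ras to the MAP kinases with Stat3 in 4 of 10. Kinds were set by the list, and the role of each gene was not checked here. When a peak counted only for its nearest protein-coding gene, 16 of the 34 kept one, against 20.0% of protein-coding genes. That share was not matched to length: the median was 59.5 kb for the listed genes and 17.2 kb for all protein-coding genes. Of the 5 genes of ligand release, 2 kept one.

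Among the genes listed as inhibitors, Lrig1, which restrains ErbB receptors and marks epidermal stem cells, had 4 peaks, all 4 inside the gene. Of protein-coding genes of all lengths, 4.75% had 4 or more peaks inside or within 50 kb, and 0.882% had 4 or more inside. Cbl and Cblb, which encode ubiquitin ligases that send activated EGFR to breakdown, had 4 peaks each, 2 and 3 of them inside. Cbl was the nearest coding gene of 2 of its peaks, and Cblb of all 4. Lrig2 had 3 peaks and Lrig3 had 0. Errfi1, which encodes a feedback inhibitor of the EGFR kinase, had 1, at 2.60 kb from the gene. Each of the 5 genes of ligand release had 1 peak; those of Adam17, which encodes the main protease that frees TGF-alpha and amphiregulin, and Rhbdf2, which encodes a partner of that protease, lay inside the gene. The peaks of Rhbdf1, Rhbdl2 and Adam10 lay 30.9, 35.3 and 49.1 kb away and were nearer to other coding genes.

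Neuregulins, the ligands of ErbB3 and ErbB4, differed among themselves. Nrg2 had 7 peaks, all inside its 183 kb body, and Nrg1 had 6, with 5 inside its 1080 kb body. Of protein-coding genes of all lengths, 2.14% had 5 or more peaks inside or within 50 kb. Nrg2, Nrg1, Map2k2 and Stat3 are named because they had most peaks of the list, so their high counts follow from that choice. Nrg4 had 1, and Nrg3 and Erbb4 had 0 although they span 1110 and 1080 kb. Among the adaptors, Gab1 had 3 peaks, all inside the gene. Downstream, Stat3, a transcription factor activated by these receptors, had 5 peaks and Map2k2, which encodes a MAP kinase kinase, had 6. Stat3 and Map2k2 were each the nearest coding gene of 1 of those.

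**Figure D4:**
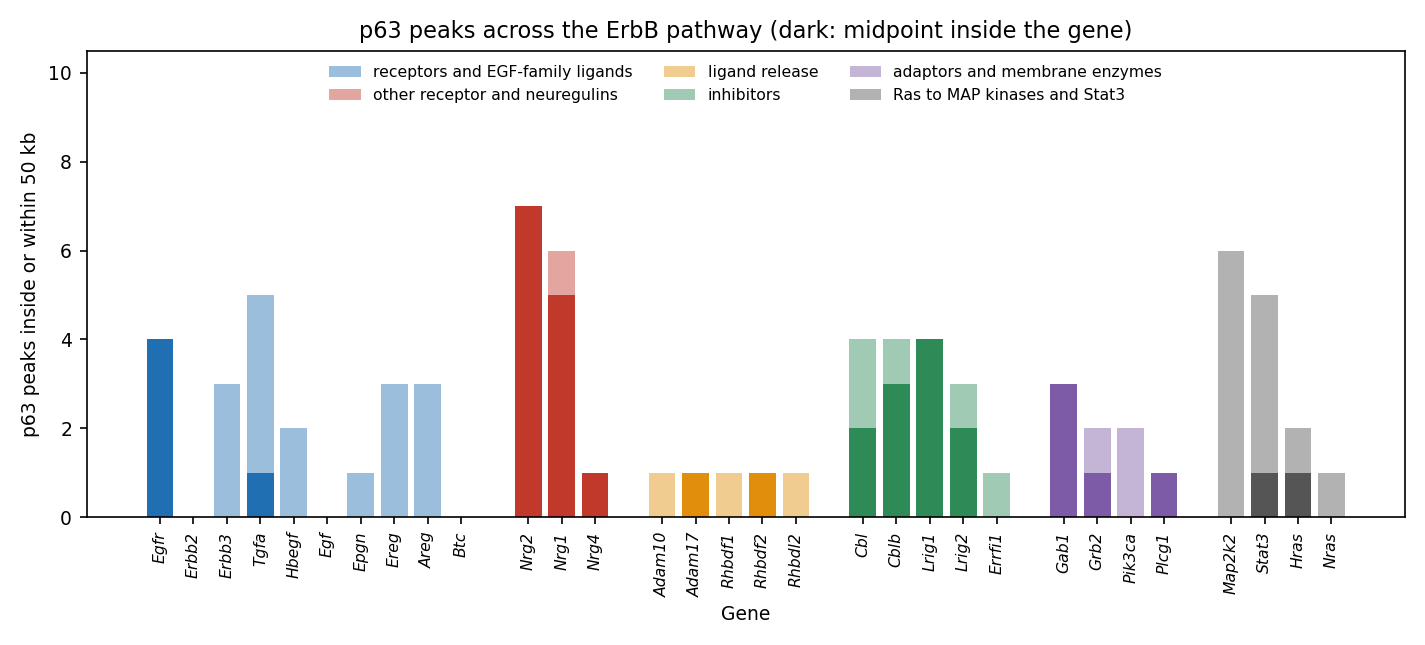
Number of p63 peaks inside or within 50 kb of the 10 receptor and ligand genes and of the 21 other listed genes of the ErbB pathway with a peak; the dark part of a bar counts midpoints inside the gene. The tallest bars are Nrg2 with 7 and Nrg1 and Map2k2 with 6, and Erbb2, Egf and Btc have no bar.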

How the data were processed

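Chromatin of MK1 and MK2 cells was precipitated with the p63 antibody 4A4 and read as 50 bp single-end reads, per the labels' protocols. SAMtools 1.1, Bowtie 1.1.1 and the build mm10 stand in the submitters' processing notes. Per the labels, the deposited list comes from IDR, which keeps peaks ranked alike in both libraries; the peak caller and its threshold were not found in these sources. The list holds 3 columns (chromosome, start, end), and a peak edge inferred from single-end reads marks a site only roughly.

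Starts were made 1-based. Of 49943 RefSeq gene rows (GRCm38.p6), 340 with an end under 3 Mb (chromosome Y apart) were left out as scaffold positions, leaving 21779 protein-coding genes. Distances run from peak midpoints to gene ends. Start sites and strands came from the RefSeq promoter table, in which 17492 of those genes had an entry. Counting was tested on simulated data with peaks at known distances. Those peaks were placed at genes far from other coding genes, so crowded neighbourhoods and shared windows were not covered. Motifs were planned for whole peaks, but no genome was used here, so they were read in promoter windows only. Counts are descriptions without a test. The text names the 10 genes with their peaks, the 8 listed pathway genes with most peaks (Lrig2 and Gab1 tied for the last place, also by nearest peak, and both are named), and further pathway genes chosen after their values were seen; some listed genes are counted but not reported here by name. Genes, lists and alternatives were chosen with earlier results of these data known. Analyses used Python 3.11.15, pandas 2.3.3 and numpy 2.4.6.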

Additional observations from a re-analysis of the deposited data

How the results depend on the processing

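Of 66 recomputed counts, 45 stayed within 1.5 times the reported one and 21 did not. Within 10 kb, peaks were counted at 4 genes, 2 ligands and 0 clustered ligands, with 8 distinct peaks in all and 0 at the clustered ligands; within 25 kb, 3 ligands and 1 clustered ligand had a peak. With each peak given only to its nearest protein-coding gene, 4 genes, 1 receptor, 3 ligands and 1 clustered ligand kept a peak, with 4 peaks at the receptors. With the nearest annotated gene of any kind, 3 genes, 1 receptor, 2 ligands and 1 clustered ligand did, with 9 peaks in all and 3 at the receptors. Joining peaks within 10 kb left 2 peaks at the clustered ligands, and peaks at least as wide as the median of 305 bp numbered 10. Leaving out peaks at promoters of other genes, an alternative chosen after seeing the data, left 4 peaks at the receptors. Windows of 100 kb and placing peaks by any base moved no count past that limit. No stricter score could be applied, since none is listed. No paired analysis was possible because the list merges both p63 libraries. With positions alone, neither depth nor peak strength bounds what a missing peak means.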
